A study of Rattus norvegicus with 6 samples.

Results

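The MYC, MAX and MXD network is a family of transcription factor genes, and 10 of the 25689 genes in the deposited count table were taken by gene name as its members: Myc, Mycn, Mycl, Max, Mlx, Mxd1, Mxi1, Mxd4, Mnt and Mga. Each name matched 1 row, and all 10 were among the 14919 genes that passed the filter on low counts. The set was chosen on measured values of the same comparison, because Mycn was higher and ribosome biogenesis genes were lower after the operation studied. The levels of Mycn and of ribosome assembly genes are therefore given as a description without a test, and the edgeR p-values of the other members are no independent support for the choice.

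RNA came from L1-L2 dorsal root ganglion (DRG) neurons of wild type spontaneously hypertensive rats (SHRs), a strain with inherited high blood pressure. In 3 samples the perirenal adipose tissue had been removed on both sides (perirenal adipose tissue ablation, PRATA), and 3 samples came from rats with a sham operation. Tissue was taken 4 weeks after surgery. The labels state an age of 6 to 8 weeks for every sample, whereas the study's methods state 12 weeks at purchase. The series counts 3 rats in each group, and the sample labels do not say whether a sample was one rat, so the p-values measure the spread between these samples only. The ganglia had been digested with collagenase and trypsin, and the cells were kept in culture for some hours before RNA was taken. The levels are therefore those of dissociated cells, and the part of these steps in them was not tested. The neurons had been enriched by flushing them from a dish on which glia adhere faster, so other ganglion cells could be carried along. Sensory neuron markers were at 8838 to 19493 CPM summed over 12 genes, and none of the 12 was at 0 in all samples.

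MYC proteins bind DNA only when paired with MAX, at the E-box motif, and raise the transcription of genes for ribosome assembly, nucleotide synthesis and growth. The MXD proteins, MXI1 and MNT pair with the same MAX protein, occupy the same motif and recruit the SIN3 corepressor, so activators and repressors share one partner. MLX is a second partner, used by some MXD proteins and by the glucose-responsive factors MLXIP and MLXIPL, while MGA pairs with MAX inside a Polycomb complex. In the nervous system MYCN is known from the growth of neural progenitors and from neuroblastoma.

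The E-box itself occurs in the promoters of several members. Among 8 members with a promoter sequence in RefSeq (build GRCr8, from 250 bases before to 50 after the start), 4 held CACGTG, a share of 50%. Of the 10419 tested genes with such a promoter 9.53% held it, and of all 27457 genes 7.08%. The motif reads the same on both strands. The windows below show the motif in capitals in these 4 members and in Ddx18 and Srm, a pair of target genes described further on, each read in the direction of transcription:
Max (chr6:101395303-101395338, minus strand, motif starting at -33): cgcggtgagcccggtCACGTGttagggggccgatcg
Mlx (chr10:86519801-86519836, plus strand, motif starting at -70): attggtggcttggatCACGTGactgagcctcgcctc
Mnt (chr10:60197821-60197856, plus strand, motif starting at -123): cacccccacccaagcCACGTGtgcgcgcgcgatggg
Mxd4 (chr14:80786569-80786604, plus strand, motif starting at -197): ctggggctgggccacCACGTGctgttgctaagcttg
Ddx18 (chr13:35295965-35296000, minus strand, motif starting at -13): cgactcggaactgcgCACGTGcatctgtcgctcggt
Srm (chr5:164308814-164308849, plus strand, motif starting at -173): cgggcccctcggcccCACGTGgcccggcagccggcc
Mycl, Mxd1, Mxi1 and Mga had no CACGTG in these windows, and Myc and Mycn had no entry. The variant CACGCG, searched on both strands, was in the promoters of Mycl and Mga, 25% of the 8, beside 17.6% of tested genes. Among the target genes described further on, Gadd45g, which MYC is known to repress, also held CACGTG, starting at -163. The activated targets Npm1, Pa2g4, Mrto4, Cad, Impdh2, Ppat, Eif2s1, Eif4a1, Eef1e1 and Tfap4 had none in these windows. Ddx18 and Srm are therefore examples and do not stand for the named targets. A match is a run of letters and was not tested for binding.

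The libraries held 5892967 to 15226952 counts, sham replicate 2 being the smallest and sham replicate 1 the largest. CPM are counts scaled to a common library size by edgeR's TMM method, and 3 counts equal 0.197 to 0.509 CPM, a limit that covers counting error only. Levels in CPM compare one gene between samples, not genes with each other, since transcript lengths were not used. Across all 14919 genes tested, PRATA replicate 3 and sham replicate 1 clustered together, apart from the other 4 samples. With edgeR's quasi-likelihood test, 8.19% of genes were higher and 10.1% lower after PRATA at an unadjusted p under 0.05. At an absolute log2 fold change over 1 as well, 1.17% were higher and 3.23% lower, and 0% had an adjusted p under 0.05. The groups did not overlap for 11.6% of genes in the higher and 11.2% in the lower direction.

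Mycn and Myc, the main activators of the network, differed in opposite directions. Mycn (ENSRNOG00000051372) was at 13.8, 18.3 and 24.8 CPM in PRATA replicates 1, 2 and 3 and at 10.3, 8.74 and 10.8 CPM in sham replicates 1, 2 and 3. The groups did not overlap, and the PRATA samples were spread more widely than the sham samples. PRATA samples averaged 19.0 ± 5.54 CPM and sham samples 9.93 ± 1.06 CPM (SD, n = 3 each), a ratio of 1.91 and a log2 fold change of 0.93 ± 0.25 (here and below, ± after a fold change or log2 difference between the groups is the standard error of the edgeR fit). These values rest on 56 to 314 reads per sample. Without PRATA replicate 3, the highest sample, the log2 fold change was 0.69.

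Myc (ENSRNOG00000004500), the general growth regulator of the family, was at 159, 180 and 131 CPM in the PRATA samples and at 384, 156 and 276 CPM in the sham samples. Sham replicate 2 lay inside the PRATA range, so the groups overlapped, while sham replicate 1 was the highest of all. PRATA samples averaged 156 ± 24.7 CPM and sham samples 272 ± 114 CPM (SD, n = 3 each), a log2 difference of -0.80 ± 0.32 (edgeR adjusted p = 0.244). Sham replicate 1 decided much of this size: without it the log2 fold change was -0.48, and without it and PRATA replicate 3, which clustered with it, -0.36 (edgeR adjusted p = 0.678). Without sham replicate 2 the value was -1.07 (edgeR adjusted p = 0.0456).

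Mycl (ENSRNOG00000014259), the MYC gene first found in lung cancer, had only 17 to 40 reads per sample. It was at 2.87 to 3.16 CPM after PRATA and 1.61 to 4.37 CPM after sham, with a log2 fold change of 0.08 ± 0.43. The sham range enclosed the PRATA range.

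**Figure D1:**
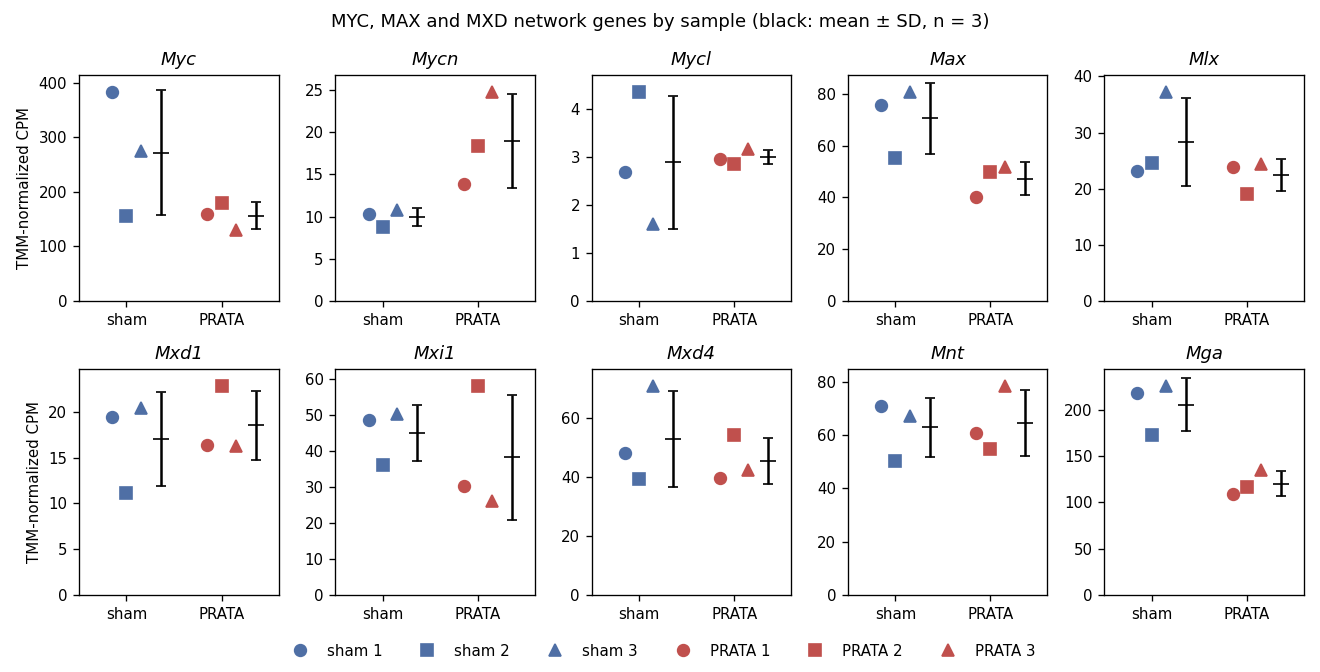
Each panel plots one member of the network as TMM-normalized CPM on a linear axis from 0, with 1 point per sample and the mean ± SD of 3 samples in black. Mycn lies higher and Max and Mga lie lower in every PRATA sample than in every sham sample, and the other 7 genes overlap, Myc through sham replicate 2.

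The split of reads between the MYC genes can be given within each sample, where library size cancels. Transcript length does not cancel, so the shares below are of reads and not of transcripts. Of the reads on Myc, Mycn and Mycl together, Mycn took 7.88% (exact binomial 95% interval 6.50 to 9.44), 9.11% (8.01 to 10.3) and 15.6% (14.1 to 17.3) in PRATA replicates 1, 2 and 3. In sham replicates 1, 2 and 3 it took 2.60% (2.20 to 3.04), 5.17% (3.93 to 6.66) and 3.74% (3.09 to 4.48). Every PRATA sample was above every sham sample, which the choice of the set on Mycn favoured. The intervals cover counting error within a sample and do not compare the groups. Per 100 reads on Myc there were 8.71 to 19.0 reads on Mycn after PRATA and 2.68 to 5.61 after sham. Myc kept the larger share of reads in every sample, between 82.4% (PRATA replicate 3) and 96.7% (sham replicate 1). The CPM of the MYC genes, summed without regard to transcript length, was 159 to 201 after PRATA and 169 to 397 after sham, with overlapping groups. Both the numerator and the denominator hold the value that the set was chosen on, so no test was made.

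**Figure D2:**
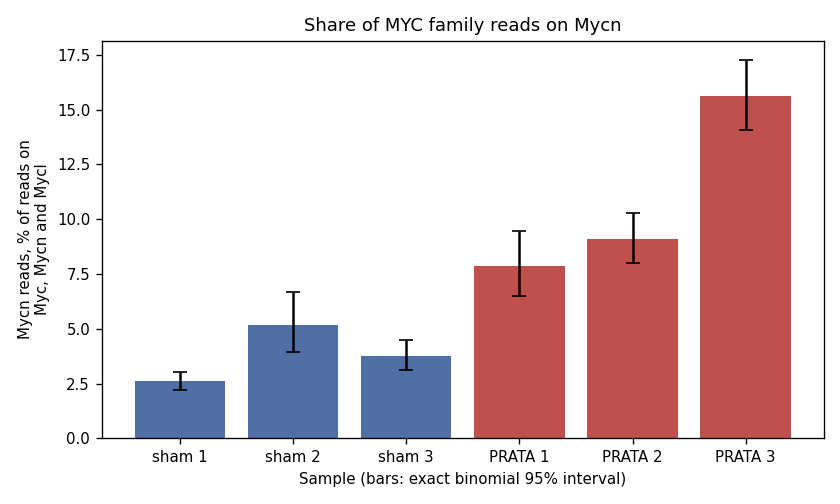
Bars give the percentage of reads on Myc, Mycn and Mycl that fell on Mycn in each sample, with exact binomial 95% intervals that cover counting error only. The sham samples lie between 2.60% and 5.17%, and the PRATA samples between 7.88% and 15.6%.

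The shared partner Max (ENSRNOG00000008049), the obligate partner of the MYC proteins and the main one of the repressors, was at 40.02, 50.0 and 52.0 CPM after PRATA and at 75.9, 55.1 and 80.9 CPM after sham. All PRATA samples were below all sham samples, with a narrow gap between PRATA replicate 3 and sham replicate 2. PRATA samples averaged 47.3 ± 6.39 CPM and sham samples 70.7 ± 13.7 CPM (SD, n = 3 each), a log2 difference of -0.58 ± 0.20 (edgeR adjusted p = 0.215). The second partner, Mlx (ENSRNOG00000019983), was at 19.1 to 24.4 CPM after PRATA and 23.2 to 37.3 CPM after sham. Its groups overlapped, and its log2 fold change was -0.34 ± 0.23 (edgeR adjusted p = 0.458), and -0.08 without sham replicate 3.

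Among the repressors, Mga stood apart from the others by its values. Mga (ENSRNOG00000006378), which encodes a large protein with a T-box as well as the MAX-pairing domain, was at 109, 117 and 135 CPM after PRATA and at 218, 173 and 226 CPM after sham. The groups were separated by a gap wider than the PRATA range. PRATA samples averaged 120 ± 13.4 CPM and sham samples 206 ± 28.9 CPM (SD, n = 3 each), a log2 fold change of -0.77 ± 0.18 (edgeR unadjusted p = 0.00277 and adjusted p = 0.156). Over 16 alternatives of the fit it stayed between -0.88 and -0.69, and its adjusted p ranged from 0.00705 with DESeq2 to 0.550 with edgeR without PRATA replicate 1.

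The classical repressors overlapped between the groups. Mxd1 (ENSRNOG00000017720), an antagonist of MYC in differentiating cells, was at 16.3 to 22.9 CPM after PRATA and 11.1 to 20.4 CPM after sham, with a log2 fold change of 0.12 ± 0.27. Mxi1 (ENSRNOG00000034078), a related antagonist, was at 26.2 to 58.2 CPM after PRATA and 36.2 to 50.3 CPM after sham, with a log2 fold change of -0.24 ± 0.31. The wide PRATA range of Mxi1 came from replicate 2, without which the log2 fold change was -0.68 (edgeR unadjusted p = 0.0224, adjusted p = 0.294). Mxd4 (ENSRNOG00000015033) was at 39.9 to 54.5 CPM after PRATA and 39.5 to 71.1 CPM after sham, with a log2 fold change of -0.21 ± 0.25. Mnt (ENSRNOG00000002894), a broadly expressed repressor, was at 54.7 to 78.6 CPM after PRATA and 50.4 to 70.8 CPM after sham, with a log2 fold change of 0.04 ± 0.21. The edgeR adjusted p of these 4 repressors was between 0.677 and 0.937, and the signs of Mxd1, Mxd4 and Mnt flipped when single samples were left out. Mxi1 was between -0.68 and -0.02 with single samples left out.

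Besides Mycn, whose direction the choice of the set fixed, 3 members (Myc, Max and Mga) were lower and 0 were higher at an unadjusted p under 0.05, where 10.1% and 8.19% of all genes were. Of these calls, Mga kept an unadjusted p under 0.05 in all 16 alternatives of the fit, Max in 12 and Myc in 8. Max lost it without PRATA replicate 1 or sham replicate 3, and Myc in 5 of the 6 fits that left out 1 sample, all but that without sham replicate 2. In the edgeR fit with all samples, none of the 10 passed the fold change threshold, and none had an adjusted p under 0.05. The median log2 fold change of the 10 was -0.23, beside 0.02 over all genes tested.

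In these bulk samples, fewer cells of a type and less RNA per cell cannot be told apart, and markers of the ganglion's cell types differed along with the members. All 12 sensory neuron markers had a positive log2 fold change, 3 of them (Prph, Prdm12 and Tubb3) at an unadjusted p under 0.05, and their sum was 12569 to 19493 CPM after PRATA and 8838 to 13204 CPM after sham. The 7 satellite glia markers all had a negative log2 fold change, with Sox10 at an unadjusted p under 0.05, and their sum was 3217 to 6169 CPM after PRATA and 4334 to 8551 CPM after sham. Of 6 Schwann cell markers, 3 (Prx, Ncmap and Pllp) were higher at an unadjusted p under 0.05, and their sum was 751 to 1303 CPM after PRATA and 535 to 705 CPM after sham. Sums of markers of fibroblasts, macrophages and endothelial cells overlapped between the groups. The fibroblast sum was 323, 736 and 1975 CPM in PRATA replicates 1, 2 and 3 and 1818, 971 and 906 CPM in sham replicates 1, 2 and 3. It was highest in PRATA replicate 3 and sham replicate 1, which clustered together. The sum for dividing cells was 52.3 to 56.1 CPM after PRATA and 57.8 to 78.8 CPM after sham. Most of it was Pcna, with means of 37.4 CPM after PRATA and 50.8 CPM after sham. Of the 4 tested markers of dividing cells, 2 had a positive log2 fold change, and the median was 0.21. Birc5, too low to be tested, was higher in every PRATA sample than in every sham sample. No matched marker of these lists was at 0 in all samples.

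Set against these markers, the members gave other values. After the mean log2 CPM of the sensory neuron markers was subtracted in each sample, Mycn differed by 0.34 (SD 0.51 after PRATA and 0.40 after sham) with overlapping groups. Max and Mga differed by -1.12 and -1.32 on this scale, and their groups did not overlap. Myc differed by -1.26 on it (SD 0.50 after PRATA and 0.92 after sham) with overlapping groups. After the mean of the satellite glia markers was subtracted instead, Mycn differed by 1.56 without overlap. On that scale Myc differed by -0.05, Max by 0.10 and Mga by -0.10, all 3 with overlapping groups. The SDs of Mycn, Myc, Max and Mga there were 0.86, 0.43, 0.65 and 0.72 after PRATA and 0.41, 0.16, 0.28 and 0.35 after sham. Both scales were added after the data were seen, and the part of cell composition in the differences was not tested beyond these values.

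Genes that act with the network were read from lists written with earlier results of these data known. Outside the members, Mlxip, the glucose-responsive partner of MLX also called MondoA, was at 52.3, 59.9 and 64.7 CPM after PRATA and at 180, 63.4 and 129 CPM after sham. Its log2 fold change was -1.08 ± 0.34 (edgeR adjusted p = 0.188), past both thresholds. Sham replicate 2 was again the low sham sample and lay within the PRATA range. Mxd3, a repressor found in dividing cells, had a log2 fold change of 0.12 ± 0.17.

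Of 17 coactivators of MYC, 4 were lower and 0 higher at an unadjusted p under 0.05, beside 10.1% and 8.19% of all genes. Their median log2 fold change was -0.11 (-0.23 without PRATA replicate 1, -0.25 without sham replicate 2 and -0.07 without PRATA replicate 3). Wdr5, a chromatin protein that helps MYC to bind its targets, was at 25.2, 22.4 and 21.98 CPM after PRATA and at 51.1, 33.7 and 50.0 CPM after sham, a log2 difference of -0.96 ± 0.21 (edgeR adjusted p = 0.156). The groups did not overlap. Ccnt1, the cyclin of the elongation kinase that MYC recruits, had a log2 fold change of -0.75, and the ATPase subunits Ruvbl1 and Ruvbl2 had -0.61 and -0.68. The values of Ruvbl1 and Ruvbl2 both became -0.35 without sham replicate 3, in which they were highest. Of 6 fits with 1 sample left out, Ruvbl1 lost an unadjusted p under 0.05 in 3 and Ruvbl2 in 5.

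Of 12 tested genes of the SIN3 corepressor, through which MXD and MNT proteins act, 0 were higher and 0 lower at an unadjusted p under 0.05. Of all genes, 8.19% were higher and 10.1% lower. The median log2 fold change of the SIN3 genes was 0.03. The smallest edgeR p-values belonged to the subunit Ing2, at 0.44, and the histone-binding Rbbp4, at -0.37 on the log2 scale, followed by Arid4a at 0.36 (0.21 without sham replicate 2) and the deacetylase Hdac2 at -0.16. In the Polycomb complex that holds MGA, 2 of 10 genes were lower and 0 higher at an unadjusted p under 0.05, beside the same shares. Tfdp1, the partner of E2F factors, was at 17.0, 21.4 and 19.8 CPM after PRATA and at 38.9, 31.5 and 35.2 CPM after sham, a log2 difference of -0.86 ± 0.18 (edgeR adjusted p = 0.156). Pcgf6, the subunit that names this form of the complex, had -0.90 ± 0.25. Both genes had groups that did not overlap, as did Mga. The ubiquitin ligase subunit Rnf2 had -0.46 (-0.27 without sham replicate 1) and L3mbtl2, another subunit, 0.27, neither at an unadjusted p under 0.05.

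Of 17 tested genes that set the lifetime of MYC proteins, 1 was higher and 2 were lower at an unadjusted p under 0.05. These counts are near the shares of all genes, 8.19% higher and 10.1% lower. The median log2 fold change of the 17 was 0.18 (0.066 without sham replicate 1, 0.085 without sham replicate 3 and 0.12 without PRATA replicate 1). Set, an inhibitor of the phosphatase that destabilizes MYC, had a log2 fold change of -0.88 ± 0.20, and Ppp2r5a, a subunit of that phosphatase, had -0.62 ± 0.22. Pim2, a kinase that stabilizes MYC, had 0.59 ± 0.25. Ppp2r5a and Pim2 each lost an unadjusted p under 0.05 in 4 of the 6 fits with 1 sample left out. Fbxw7, the ubiquitin ligase subunit that recognizes MYC and MYCN, was at 122, 91.8 and 110 CPM after PRATA and at 70.5, 89.3 and 85.1 CPM after sham. Its groups did not overlap, by a margin of PRATA replicate 2 over sham replicate 2, and its log2 fold change was 0.40 ± 0.18 (edgeR adjusted p = 0.280).

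Genes that MYC proteins are known to activate were lower after PRATA in most cases. Their direction was known when the lists were written, and the ribosome list overlaps the values that chose the set, so no p is given for that list and its counts are a description. Of 36 ribosome assembly targets, 35 had a negative log2 fold change, with a median of -0.89. The mean log2 CPM of the list was 5.38, 5.35 and 5.47 in the PRATA samples and 6.34, 5.81 and 6.48 in the sham samples. Ddx18, a nucleolar RNA helicase, was at 22.7, 20.0 and 21.3 CPM after PRATA and at 48.6, 41.4 and 69.6 CPM after sham. Npm1, the nucleolar histone chaperone, was at 177, 163 and 176 CPM after PRATA and at 359, 296 and 430 CPM after sham. Pa2g4 and Mrto4, also ribosome assembly factors, had log2 fold changes of -1.28 and -0.99. The groups of all 4 genes were separate, as were those of 26 of the 36 in the lower direction, beside 11.2% of all genes. The 4 had the smallest p in a list that overlaps the values that chose the set. Their separation is therefore no support.

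The other targets differed in the same direction by smaller medians. Of 31 metabolic targets, 13 were lower and 0 higher at an unadjusted p under 0.05, beside 10.1% and 8.19% of all genes. Their median log2 fold change was -0.45. Srm, the spermidine synthase of polyamine synthesis, was at 5.94, 6.06 and 15.7 CPM after PRATA and at 32.3, 27.6 and 35.7 CPM after sham, and PRATA replicate 3 was closest to the sham samples. Cad, the first enzyme of pyrimidine synthesis, had a log2 fold change of -0.93, and the purine enzymes Impdh2 and Ppat had -0.87 and -0.71. Of 18 tested targets in translation and the cell cycle, 7 were lower and 0 higher, beside the same shares of all genes, with a median of -0.44. The initiation factor genes Eif2s1, at -0.89, and Eif4a1, at -0.79, were among those lower. The direction of both lists was known when they were written, so these counts are no independent support. Eef1e1, a factor bound to tRNA synthetases, had -0.68, and Tfap4, a transcription factor induced by MYC, had -0.99.

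Ribosome assembly targets with and without CACGTG had similar medians. The 12 with the motif in the promoter had a median log2 fold change of -0.91, and the 22 without it -0.87. In the metabolic list the medians were -0.94 for 6 genes with and -0.43 for 22 genes without the motif, and in the translation and cell cycle list -0.45 for 3 genes with and -0.61 for 10 genes without it. The motif was in 35.3% of the ribosome assembly promoters, 21.4% of the metabolic and 23.1% of the translation and cell cycle promoters, beside 9.53% for tested genes.

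Of 9 genes that MYC is known to repress, 1 was higher and 1 lower at an unadjusted p under 0.05, beside 8.19% and 10.1% of all genes. Their median log2 fold change was -0.15. Gadd45g, a stress and growth arrest gene, was at 86.7, 90.7 and 65.2 CPM after PRATA and at 53.0, 26.5 and 45.1 CPM after sham, a log2 difference of 0.96 ± 0.27 (edgeR adjusted p = 0.171). Thbs1, a secreted matrix protein gene, had -0.95 with overlapping groups, and -0.62 without sham replicate 1. It lost an unadjusted p under 0.05 in 5 of the 6 fits with 1 sample left out. Cdkn1b, the cell cycle inhibitor p27, had 0.33 ± 0.17, and Gadd45a -0.48 ± 0.39. Of 6 tested targets of MLX and MondoA, 0 passed an unadjusted p under 0.05. Txnip, the best known of them, which limits glucose uptake, had a log2 fold change of 0.58 ± 0.35 (0.19 without PRATA replicate 2 and 0.95 without sham replicate 1), and the lipid synthesis genes Acaca, Fasn and Mid1ip1 had 0.28, 0.31 and 0.24, the last 0.16 without sham replicate 2.

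**Figure D3:**
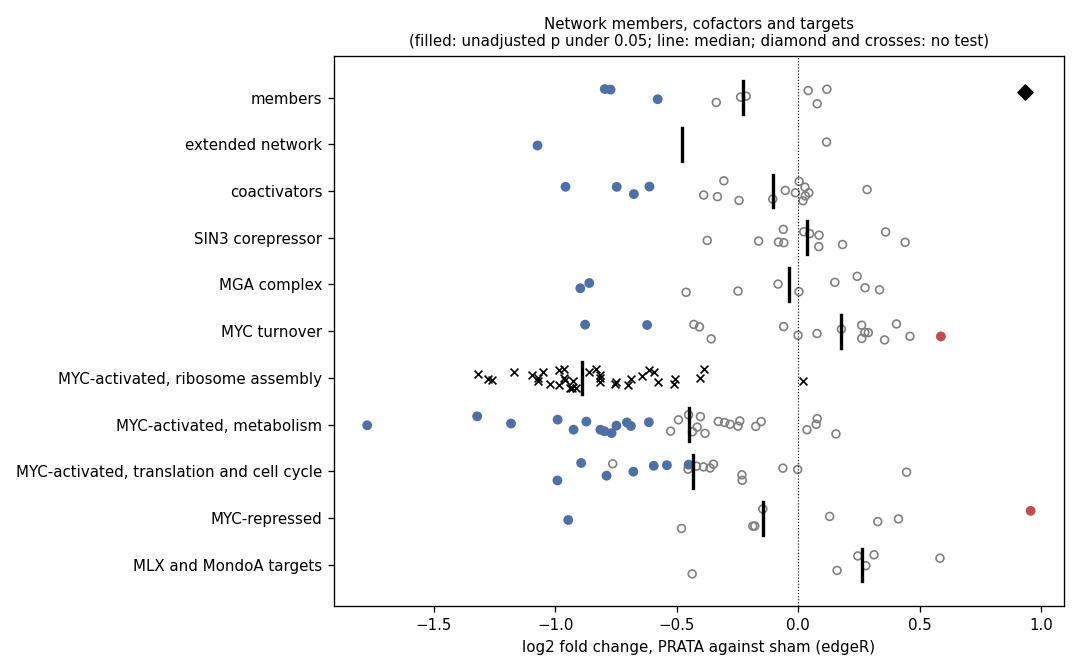
Each point is the edgeR log2 fold change of 1 gene, PRATA against sham, for the members and 10 lists of genes that act with the network. Filled points passed an unadjusted p under 0.05, black lines are medians, and the diamond (Mycn) and crosses (ribosome assembly) are given without a test. Points of the ribosome assembly list crowd around a median of -0.89, and those of the SIN3 corepressor lie around 0.03.

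Over the 6 samples, Mycn and Myc followed different genes in log2 CPM. Among 11298 genes with a mean of at least 5 CPM, those most like Mycn were Acaa2 (Pearson r = 0.994), Dgkq (0.974), Pigs (0.971), Abhd16a (0.970) and Crlf2 (0.970). The most opposite were RGD1307554 (-0.969), Ogn (-0.962) and Anapc10 (-0.955). Most like Myc were Zfp518a, Zfp638, Ptpn12, Nr3c1 and Zfpl1 (r from 0.992 to 0.995), with Vps25, Lrrc75b and Bex3 the most opposite (r = -0.996). Among the members, Max (0.812) and Mga (0.759) had the highest r to Myc, and Mycn had -0.542. These values describe 6 points that share the operation and the library of each sample. The most like and most opposite genes were picked as extremes among 11298, so the size of their r is no support. Every such gene named for Mycn had groups that did not overlap, as had Mycn, whose difference chose the set.

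**Figure D4:**
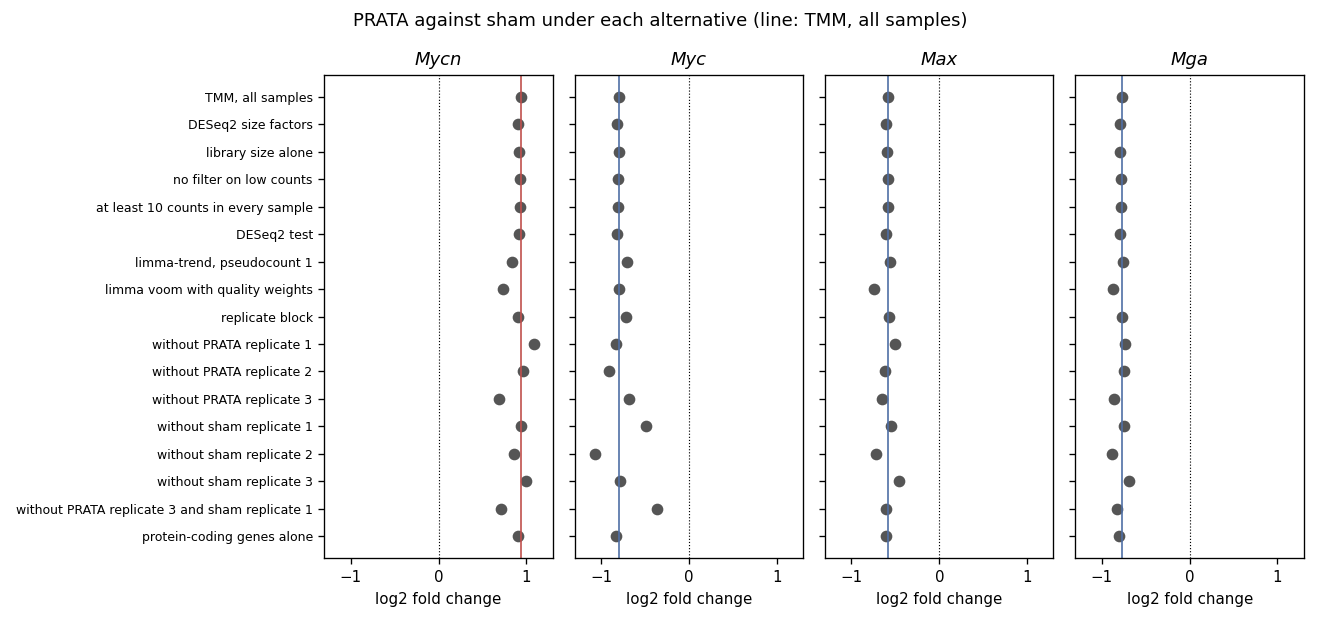
Points give the log2 fold change of Mycn, Myc, Max and Mga in the fit reported here and under 16 alternatives, and a coloured line marks the reported value. Mycn stays between 0.69 and 1.09 and Mga between -0.88 and -0.69, while Myc ranges from -1.07 without sham replicate 2 to -0.36 without PRATA replicate 3 and sham replicate 1.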

How the data were processed

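The authors deposited 1 table of unnormalized counts per gene, with 6 sample columns. The submitters' processing notes name STAR 2.7.3a, RSEM and DESeq2, and the study's methods name HISAT2, StringTie and Cuffdiff. Which of them made the counts, the genome build, the annotation and the strand setting are not given in the sources used here, and counts rounded from RSEM estimates would look the same.

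The tests used edgeR 4.0.16 in R 4.3.3 (filterByExpr, minimum count 10 and total 15, TMM, quasi-likelihood test, Benjamini-Hochberg over 14919 genes), limma 3.58.1 and DESeq2 1.42.0, and figures were drawn in Python 3.11.15 with matplotlib 3.10.9. Standard errors are the size of the log2 fold change divided by the root of F. The 16 alternatives varied the size factors, the filter, the tool, a replicate block, the gene types and the samples included. Limma-trend used a pseudocount of 1. The tools were first tested on simulated counts. With 3 samples against 3, an exact permutation test cannot give a p under 0.10, and none is reported.

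Members, gene lists and tests were chosen with earlier results of these data known. Named were the 10 members, up to 4 genes per list with the smallest p (for ribosome assembly an order only, not a test), and the genes most and least like Mycn and Myc. Of the lists, Mlxipl, Brms1 and E2f1 were not matched, Phb1 was matched by an older symbol, and Sap18, Cip2a and Pklr were filtered. RefSeq promoters (GRCr8) were matched by symbol.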

Additional observations from a re-analysis of the deposited data

How the results depend on the processing

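Depth limits Mycl most, with 17 to 40 reads per sample. Mycn, Myc, Max and Mga kept their direction under the 16 alternatives, with log2 fold changes from 0.69 to 1.09, -1.07 to -0.36, -0.74 to -0.46 and -0.88 to -0.69. The adjusted p was under 0.05 for Myc and Mga in edgeR without sham replicate 2 (0.0456 and 0.0376), for Max and Mga in limma voom with quality weights (0.0459 and 0.0324) and for Mga in DESeq2 (0.00705). Less the satellite glia marker mean, chosen after seeing the data, Max differed by 0.10.

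Genes past both thresholds numbered 175 higher and 482 lower. There were 340 higher with voom, 84 higher and 253 lower with limma-trend, 1159 lower without a filter on low counts, and 421 higher without PRATA replicate 3 and sham replicate 1. With each sample left out in turn, 101 to 361 were higher and 383 to 673 lower. At an adjusted p under 0.05 there were 0 in edgeR, beside 1222 higher and 1512 lower at an unadjusted p under 0.05. DESeq2 gave 234 higher and 510 lower, voom 447 and 726, limma-trend 0, edgeR without PRATA replicate 3 and sham replicate 1 gave 9 and 4, and leaving out each sample gave 0 to 162 and 0 to 559, the highest without sham replicate 2.

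Between samples of the same number, deviations from the group means had r of -0.348, -0.037 and -0.349 across genes. With 3 samples per group these r depend on each other, so they cannot decide whether the replicate numbers mark pairs. With the number as a block, 147 were higher and 372 lower past both thresholds, with 0 at an adjusted p under 0.05, and Mycn, Myc, Max and Mga had 0.90, -0.72, -0.57 and -0.77. With the block, the edgeR unadjusted p was 0.0832 for Myc and 0.0542 for Max, no longer under 0.05, and 0.0134 for Mga.

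Signs flipped for values near 0. Mxd1 was at -0.068 with voom and at -0.10 to 0.27 with each sample left out, and Mnt at -0.043 with voom, -0.042 without PRATA replicate 3 and sham replicate 1, and -0.12 to 0.15 by sample. Mycl (-0.21 to 0.47), Mxd4 (-0.38 to 0.065) and Gadd45a (-0.76 to 0.12) flipped without sham replicate 3, and Mxi1 (0.027) without PRATA replicate 3 and sham replicate 1. The median of the SIN3 list was -0.0056 by library size alone and -0.027 to 0.083 by sample. That of the MGA complex was -0.12 to 0.049, and that of MYC-repressed genes -0.39 to 0.11 and, without PRATA replicate 3 and sham replicate 1, 0.30. The median of all genes was -0.0085 by library size alone, -0.17 without a filter, -0.00037 for protein-coding genes and -0.011 to 0.042 by sample. The cause of these changes was not tested.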
